A study of Mus musculus with 16 samples.

Results

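Natural killer and cytotoxic genes were compared between size-selected samples of mouse spleen and whole spleen. The group is the 10 genes with the symbols Ncr1, Klrb1c, Klrk1, Klre1, Gzma, Gzmb, Prf1, Nkg7, Eomes and Tbx21, chosen by symbol out of 54838 genes in the deposited count table, and all 10 were found. RNA came from C57BL/6 mouse spleen in 16 samples, 8 size-selected and 8 whole spleen. For the size-selected samples, spleens were digested with Dispase II, red blood cells were lysed, and what a strainer held back was taken. Their labelled source is spleen glia, the non-neuronal cells along the nerves of the spleen. The labels give no separate account of how whole spleen was prepared, and no age, treatment or genetic change for either group. Each of 8 numbers has 1 sample in each group: 407, 408, 427 and 435 are male, and 436, 445, 447 and 460 are female. The labels do not say that a number is 1 animal, so the p-values measure the spread between these samples.

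Natural killer cells are innate lymphocytes that kill infected or transformed cells without prior sensitisation, and the spleen is one of their main reservoirs. Inhibitory and activating receptors on their surface are read against each other, and when activation prevails, granules holding perforin and granzymes are released onto the target. Eomes and Tbx21 (T-bet) are the T-box transcription factors that direct their development. Of these genes, Ncr1 and Klrb1c are the usual markers of natural killer cells in C57BL/6 mice, but group 1 innate lymphoid cells carry both as well. Klrk1, the granule genes and both transcription factors are also used by activated and memory CD8 T cells.

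The promoters of the genes are shown because Runx factors are among the known regulators of natural killer and cytotoxic T cell genes. All 10 genes matched the RefSeq promoter table (GRCm38.p6), and the 250 bases before each RefSeq start site were searched on both strands for the Runx core, which is TGTGGT or, read on the other strand, ACCACA. The T-box core was searched likewise, as GGTGTG and, on the other strand, as CACACC. The letters of both cores allow them to overlap, which no matches here did. Capitals mark a Runx core in the 4 promoters below, printed 5′ to 3′ along the gene's own strand. They lie at chr7:4337465-4337714 on the plus strand (Ncr1), and on the minus strand at chr6:129623865-129624114 (Klrk1), chr13:113100982-113101231 (Gzma) and chr14:56262335-56262584 (Gzmb).
Ncr1: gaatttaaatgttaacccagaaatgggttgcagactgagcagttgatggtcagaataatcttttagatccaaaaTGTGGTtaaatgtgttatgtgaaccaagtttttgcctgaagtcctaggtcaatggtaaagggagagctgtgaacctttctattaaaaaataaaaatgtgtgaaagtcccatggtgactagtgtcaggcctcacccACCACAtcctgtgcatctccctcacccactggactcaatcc
Klrk1: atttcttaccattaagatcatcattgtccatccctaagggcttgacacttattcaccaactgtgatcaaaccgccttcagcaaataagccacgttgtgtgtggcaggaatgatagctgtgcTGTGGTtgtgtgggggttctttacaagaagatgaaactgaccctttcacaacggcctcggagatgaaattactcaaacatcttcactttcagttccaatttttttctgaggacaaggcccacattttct
Gzma: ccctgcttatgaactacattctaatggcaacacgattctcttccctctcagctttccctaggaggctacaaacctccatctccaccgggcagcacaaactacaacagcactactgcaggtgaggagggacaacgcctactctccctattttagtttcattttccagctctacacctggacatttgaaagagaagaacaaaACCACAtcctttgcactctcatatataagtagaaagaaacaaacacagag
Gzmb: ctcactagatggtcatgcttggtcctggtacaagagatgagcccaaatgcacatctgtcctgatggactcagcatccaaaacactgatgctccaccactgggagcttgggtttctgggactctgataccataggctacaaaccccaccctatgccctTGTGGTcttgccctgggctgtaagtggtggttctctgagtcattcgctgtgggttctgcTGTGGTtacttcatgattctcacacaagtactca
The core begins at position -176 and again at -41 from the start site in Ncr1, at -129 in Klrk1, at -50 in Gzma, and at -93 and -34 in Gzmb. A Runx core was found in 8 of the 10 promoters, against 14.2% of the 27025 promoters searched. Those without one in this window were Eomes and Tbx21. Of the 8, the windows of Klrb1c, Klre1, Prf1 and Nkg7 overlap annotated exons, and these are not printed. Those of Klrb1c and Klre1 lie wholly inside the genes as annotated by GENCODE. The T-box core was found in 1 of the 10, Nkg7, against 16.2% of all promoters. It begins at -13, where the window has already passed the GENCODE start of Nkg7. A match describes letters in the window and shows no binding. Whether Runx or T-box factors have a part in the difference between the fractions was not tested.

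All 10 genes were lower in the size-selected samples than in whole spleen. Over all genes tested, 30.4% were called lower, with an adjusted p under 0.05 in edgeR's quasi-likelihood test, and 37.5% were called higher. The median log2 fold change of the 10 genes was -1.35, with a range from -2.05 to -0.66, beside a median of 0.05 over the 14510 genes tested. All 10 passed the filter on low counts. Levels are in CPM (counts scaled to a common library total), which give a gene's share of the RNA in a sample, so that fewer cells of a type and less RNA per cell cannot be told apart. Nor do the values tell which of several cell types the RNA of a shared gene came from.

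**Figure D1:**
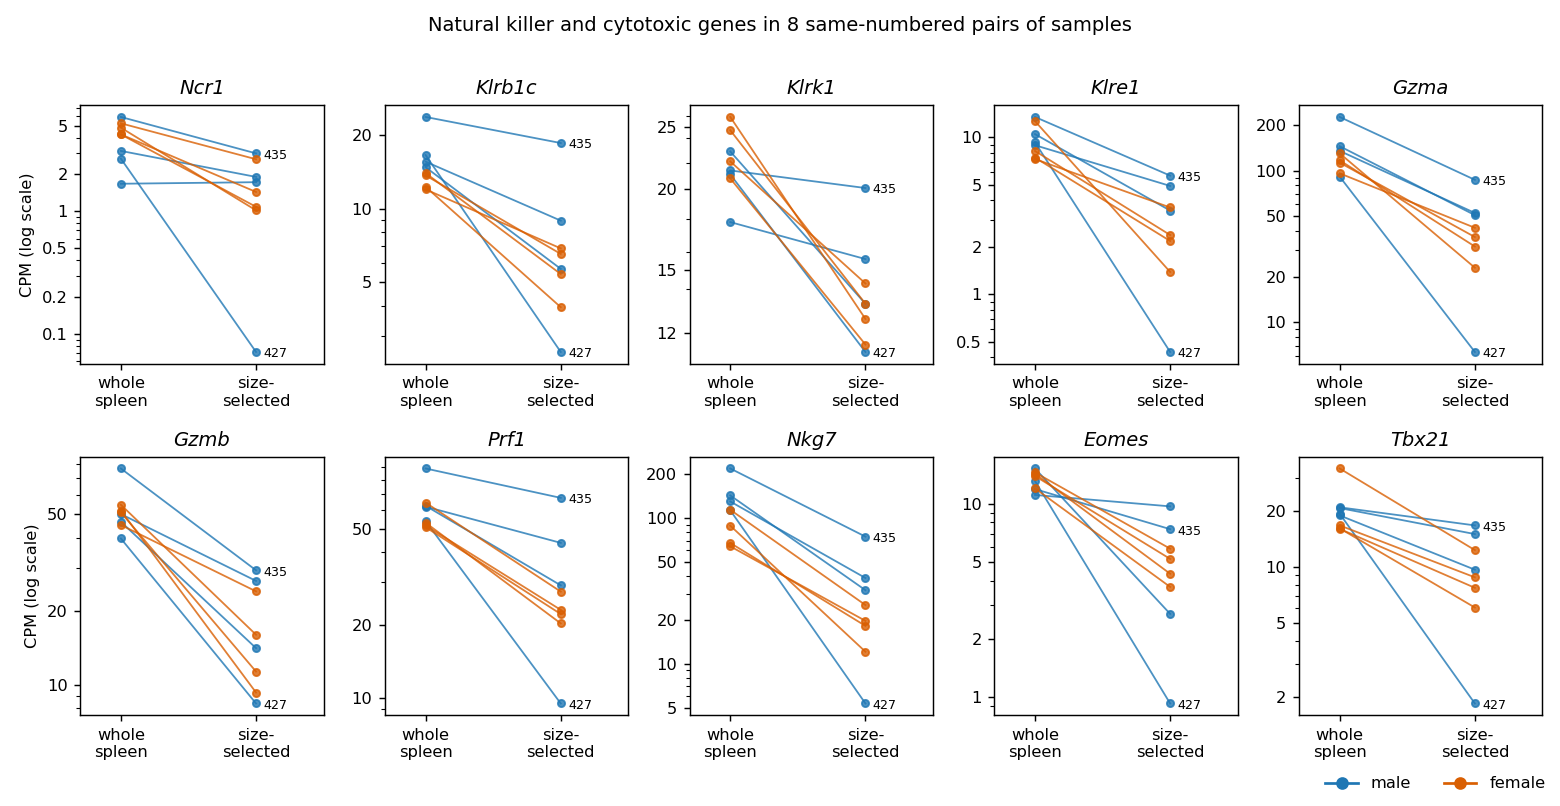
CPM (log scale) of each gene in both fractions, joined by a line for each of the 8 numbers and coloured by sex. The lines fall in all 8 pairs for 9 genes and in 7 of 8 for Ncr1. Number 427 is the lowest size-selected sample in all 10 panels.

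Among the receptors, Ncr1 encodes NKp46, an activating receptor that defines natural killer cells and related innate lymphoid cells. It had from 0.0716 to 2.97 CPM in the size-selected samples (median 1.59) and from 1.68 to 5.88 CPM in whole spleen (median 4.24, n = 8 each). The lowest value was 1 read in size-selected sample 427, and the groups overlapped, with 4 of 8 size-selected samples below every whole spleen sample. Ncr1 fell by 1.30 on the log2 scale (SE 0.40, edgeR adjusted p = 0.00781). It was lower in 7 of 8 numbers, and in the remaining one, 408, the log2 change was 0.04. Ncr1 lies on chromosome 7 (4337724 to 4345164, plus strand, GRCm38), and with at most 84 reads in any sample it was the most thinly counted of the 10.

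Klrb1c encodes NK1.1, the receptor by which natural killer cells are commonly stained in this strain. Its level ran from 2.58 to 18.6 CPM in the size-selected samples (median 6.09) and from 12 to 23.8 CPM in whole spleen (median 14.4, n = 8 each). Size-selected sample 435 alone reached into the whole spleen range, and the other 7 lay below it. Klrb1c fell by 1.07 (log2, SE 0.30, edgeR adjusted p = 0.004) and was lower in 8 of 8 numbers. Klrb1c lies at 128778485 to 128789215 on chromosome 6 in a family of similar Klrb1 genes and shares exon sequence with the overlapping gene Gm44511, so the assignment of its reads is uncertain.

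Klrk1 encodes NKG2D, an activating receptor for stress-induced ligands, and lies at 129610323 to 129623864 on chromosome 6. It spanned 11.2 to 20.1 CPM in the size-selected samples (median 13.3) and 17.8 to 25.9 CPM in whole spleen (median 21.7, n = 8 each). Again only size-selected sample 435 overlapped with whole spleen. Klrk1 fell by 0.66 (log2, SE 0.12, edgeR adjusted p = 1.33e-04), the smallest fall of the 10, in 8 of 8 numbers. Klre1, at 129577905 to 129585827 on the same chromosome, encodes a lectin-like receptor that pairs with other receptors of its family. Its CPM lay between 0.43 and 5.71 in the size-selected samples (median 2.91) and between 7.28 and 13.5 in whole spleen (median 9.11, n = 8 each), with no overlap. Klre1 fell by 1.69 (log2, SE 0.34, edgeR adjusted p = 2.39e-04).

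Of the granule genes, Gzma encodes granzyme A, a serine protease delivered into target cells. It measured 6.37 to 87 CPM in the size-selected samples (median 39.2) and 91.3 to 226 CPM in whole spleen (median 123, n = 8 each). The groups did not overlap, and number 435 was the highest in both. Gzma, on chromosome 13 (113093825 to 113100981, minus strand), fell by 1.67 (log2, SE 0.34, edgeR adjusted p = 2.38e-04).

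Gzmb encodes granzyme B, which cleaves caspases in the target. Its range was 8.36 to 29.4 CPM in the size-selected samples (median 15) and 39.7 to 76.9 CPM in whole spleen (median 50.4, n = 8 each). Here too the groups stood apart, and the highest size-selected samples were 435, 408 and 447. Gzmb, on chromosome 14 (56258838 to 56262260, minus strand), fell by 1.58 (log2, SE 0.24, edgeR adjusted p = 1.35e-05).

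Prf1 encodes perforin, which forms the pores through which granzymes enter. It ranged between 9.45 and 67.3 CPM in the size-selected samples (median 25.3) and between 50.9 and 89.1 CPM in whole spleen (median 57.9, n = 8 each). Of the size-selected samples, 7 were below all of whole spleen and number 435 was within its range. Prf1, at 61297833 to 61304680 on chromosome 10, fell by 1.00 (log2, SE 0.27, edgeR adjusted p = 0.00327).

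Nkg7 encodes a membrane protein of cytotoxic granules and had the largest fall of the 10. It covered 5.34 to 74.6 CPM in the size-selected samples (median 22.5) and 64 to 219 CPM in whole spleen (median 113, n = 8 each). The single overlap was again number 435, whose size-selected sample exceeded the whole spleen samples 445 and 447. Nkg7, on chromosome 7 (43437073 to 43438249, plus strand), fell by 2.05 (log2, SE 0.39, edgeR adjusted p = 1.52e-04). Its mean CPM was 4.15 times higher in whole spleen.

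Of the transcription factors, Eomes, which is needed for mature natural killer cells and is low in other group 1 innate lymphoid cells, had 0.931 to 9.69 CPM in the size-selected samples (median 4.77). Whole spleen had 11.1 to 15.2 CPM (median 13.5, n = 8 each), the narrowest relative spread of the 10 genes (CV 11%), and the groups did not overlap. Eomes, at 118478212 to 118486132 on chromosome 9, fell by 1.41 (log2, SE 0.30, edgeR adjusted p = 3.73e-04). Its exons overlap those of Gm33460, and the reads of the pair may not be separable.

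Tbx21 encodes T-bet, which natural killer cells, other group 1 innate lymphoid cells and effector T cells share. Between 1.84 and 16.7 CPM were found in the size-selected samples (median 9.22) and between 16 and 33.8 CPM in whole spleen (median 19.1, n = 8 each). In the deposited values number 435 alone overlapped among the size-selected samples, and number 436 was far above the other whole spleen samples. Tbx21, on chromosome 11 (97098071 to 97115331, minus strand), fell by 1.05 (log2, SE 0.30, edgeR adjusted p = 0.00433).

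In all, the groups did not overlap for 4 of the 10 genes (Klre1, Gzma, Gzmb and Eomes), against 11.6% of all genes tested with the size-selected samples lower. The size-selected sample was the lower one in all 8 numbers for 9 of the 10, against 22.3% of all genes. The values of 3 genes, Gzmb, Nkg7 and Tbx21, are affected by a feature of the deposited table: in the size-selected columns only, they had been multiplied by a constant of 0.77 to 0.858, depending on the sample. Divided by it, Gzmb fell by 1.33 (log2, SE 0.24), Nkg7 fell by 1.81 (SE 0.39) and Tbx21 fell by 0.81 (SE 0.30). Their edgeR adjusted p were then 1.01e-04, 5.02e-04 and 0.0226, all 10 genes were called lower (30.4% of all genes), and Nkg7 was still the gene with the largest fall.

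The 10 genes did not fall by the same amount. Within every one of the 8 numbers, Klrk1 fell less than Klrb1c, Klre1, Gzma, Prf1, Nkg7 and Eomes. The median differences in log2 change ran from 0.34 (Prf1) to 1.42 (Nkg7, 1.16 with restored counts). Klrk1 also fell less than Ncr1 in 6 of 8. The same held against Gzmb in 7 of 8 and against Tbx21 in 3 of 8 once the constants were removed, where the deposited values gave 8 of 8. Nkg7 fell more than Klrb1c, Klrk1, Prf1 and Tbx21 in 8 of 8 numbers with or without the constants. Against Gzma this was 8 of 8 in the deposited values (median difference -0.37) and 6 of 8 with restored counts (-0.06). Among the granule genes without a constant, Gzma fell more than Prf1 in 8 of 8 numbers, by a median of -0.76. Klre1 fell more than Klrb1c in 8 of 8, by -0.50. These pairs are described as measured, with no test.

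For these genes the size-selected samples differed among themselves more than the whole spleen samples did. The coefficient of variation was larger in the size-selected group for all 10 genes, at 20.2% (Klrk1) to 76.1% (Nkg7), against 11% (Eomes) to 42.4% (Nkg7) in whole spleen. Of all genes tested, 46.3% had the larger coefficient in the size-selected group. Size-selected sample 427 had the lowest level of its group for 10 of the 10 genes, where it was the lowest for 24.5% of all genes. Size-selected sample 435 was the highest for 9 of 10, against 11.7% of all genes, and the exception was Eomes, highest in 408. In whole spleen, number 435 was the highest for 7 of 10, against 16.6% of all genes.

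By number, the median log2 change of the 10 genes was -3.47 for 427, the largest fall, and -0.64 for 408, the smallest. It was -0.82 for 435, -1.13 for 447, -1.18 for 445, -1.44 for 407, -1.54 for 460 and -1.70 for 436. All 10 genes were called lower with any of the 8 numbers left out, 427 included, and with the number as a block (31.3% of all genes lower).

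**Figure D2:**
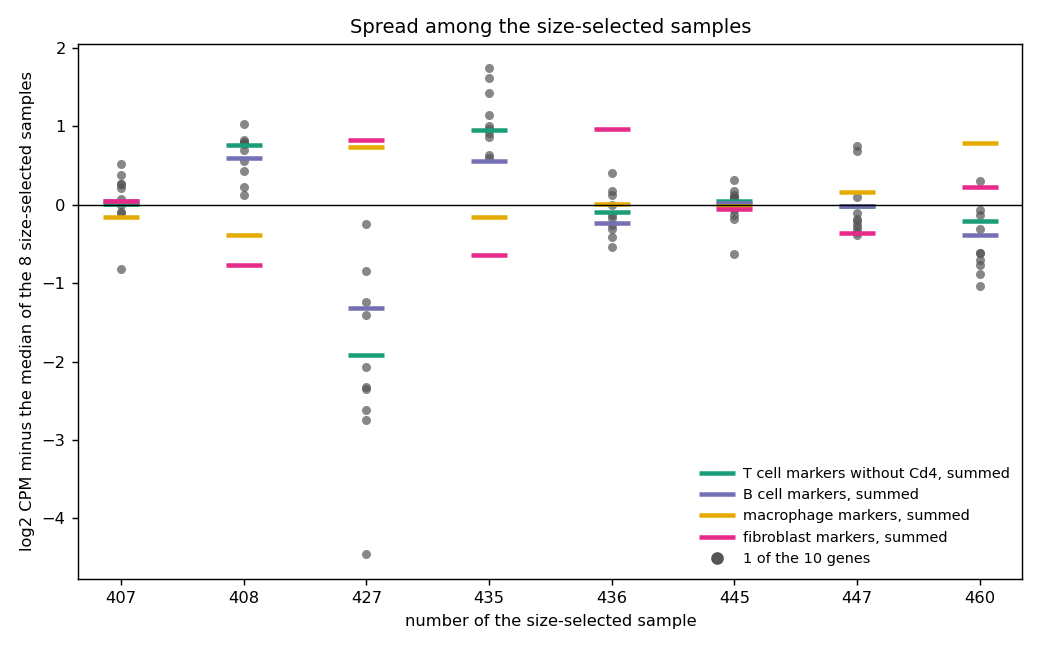
log2 CPM of each of the 10 genes (grey points) in each size-selected sample, minus that gene's median over the 8 size-selected samples, with the summed CPM of 4 marker lists, the T cell list without Cd4, treated in the same way (coloured bars). In sample 427 the 10 genes lie from -4.46 to -0.24 and in sample 435 from 0.59 to 1.74.

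Marker sums of other lymphocytes also differed between these samples. The summed CPM of 8 T cell genes (Cd3e, Cd3d, Cd3g, Trac, Cd4, Cd28, Cd5 and Lck) ran from 156 in sample 427 to 519 in sample 435 among the size-selected samples, and from 685 to 1061 in whole spleen. Of these, 7 of 8 were called lower, with a list median of -1.57, and Cd4 was not (0.30, edgeR adjusted p = 0.0669). Cd4 was called higher with the number as a block (0.32, adjusted p = 0.0371) and without number 427 (0.30, adjusted p = 0.0476). Without Cd4, which some dendritic cells also carry and which alone gave 93.6 of the 156 CPM in sample 427, the other 7 T cell genes summed to 62.3 CPM in 427, 453 in 435 and 637 to 980 in whole spleen. Cd8a (-0.99) and Cd8b1 (-1.74), which mark CD8 T cells, were both called lower, and no gene of either list was at 0 in all size-selected samples. The 5 B cell genes were called lower, 5 of 5, and their sum ran from 824 to 3109 CPM in the size-selected samples and from 5072 to 6369 in whole spleen.

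The list for group 1 innate lymphoid cells other than natural killer cells (Itga1, Cxcr6, Cd200r1 and Tmem176a) did not run as one. Its sum was highest in size-selected sample 427 (978 CPM) and lowest in 435 (299 CPM), against 73.3 to 111 CPM in whole spleen, but most of it was Tmem176a (820 CPM in 427) and Itga1 (143 CPM). Cxcr6 had its lowest level in 427 (7.52 CPM, highest size-selected sample 23.6). Tmem176a (3.31, SE 0.25) and Itga1 (4.92, SE 0.29, 5.00 with the constant removed), which other cell types of the spleen also express, were called higher, Cxcr6 fell by 1.14 (SE 0.21), and Cd200r1 was not called (0.34, edgeR adjusted p = 0.24).

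The summed fibroblast genes had 1029 to 3449 CPM in the size-selected samples and 4.81 to 54.8 in whole spleen, and sample 427 was above 6 of the other 7. The macrophage sum was 2764 to 6226 CPM against 1177 to 2325, with 4 of 6 genes called higher. The 10 genes together summed to 46.6 CPM in sample 427, 330 in sample 435 and a median of 138 in the size-selected samples, against 343 to 708 in whole spleen. The part of cell composition in the fall of the 10 genes was not tested.

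The sum of 7 genes that nearly all leukocytes express (Ptprc, Coro1a, Cd53, Laptm5, Cd52, Rac2 and Arhgdib) was 3347 to 7127 CPM in the size-selected samples and 9499 to 12163 CPM in whole spleen, whereas the macrophage sum, also of leukocytes, was higher after size selection. A second comparison therefore measured each gene relative to this sum. On that scale, 4 of the 10 genes were called lower, where 1.79% of all genes tested were, and 1 was called higher, where 80.8% were. The median log2 change was -0.41 for the 10 genes and 1.13 for all genes.

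Relative to the leukocyte genes, Nkg7 fell by 1.13 (log2, SE 0.31, edgeR adjusted p = 0.00238) and Klre1 fell by 0.76 (SE 0.28, adjusted p = 0.0194). Gzma fell by 0.73 (SE 0.26, adjusted p = 0.0148) and Gzmb fell by 0.61 (SE 0.19, adjusted p = 0.00587). Klrk1 rose by 0.38 (SE 0.14, adjusted p = 0.0183). The other 5 were not called: Eomes -0.46, Ncr1 -0.37, Klrb1c -0.13, Tbx21 -0.10 and Prf1 -0.06, with standard errors of 0.19 (Prf1) to 0.38 (Ncr1).

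Several of these calls were not stable. Restored counts ended the call of Gzmb (-0.33, edgeR adjusted p = 0.113), leaving 3 of 10 lower (1.35% of all genes), and moved Tbx21 to 0.18 (SE 0.25, not called). Without number 460 that of Klre1 ended (-0.59, edgeR adjusted p = 0.0772), while Eomes was called without number 408 (-0.63, adjusted p = 0.0342). With Ptprc as the only reference, 7 of 10 were lower (5.31% of all genes) and Klrk1 stood at -0.13. Relative to the 8 T cell genes, a reference added after the data were seen, 1 was lower, Nkg7 (-0.81, SE 0.27, edgeR adjusted p = 0.00926, where 0.289% of all genes were). That fit used deposited values only, in which Nkg7 carries a constant, as do Cd3g and Lck among the reference genes. The call of Nkg7 was therefore not checked with restored counts. Klrk1 was higher (0.77, SE 0.19, adjusted p = 9.34e-04), where 88.1% of all genes were. With Cd4 taken out of that reference, likewise added after the data were seen, edgeR called 0 of 10 lower (0.0345% of all genes), with 0 lower at an unadjusted p under 0.05. Klrk1 (1.26, SE 0.33, adjusted p = 0.00126) and Prf1 (0.61, SE 0.25, adjusted p = 0.0234) were then higher, as were 92.6% of all genes.

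**Figure D3:**
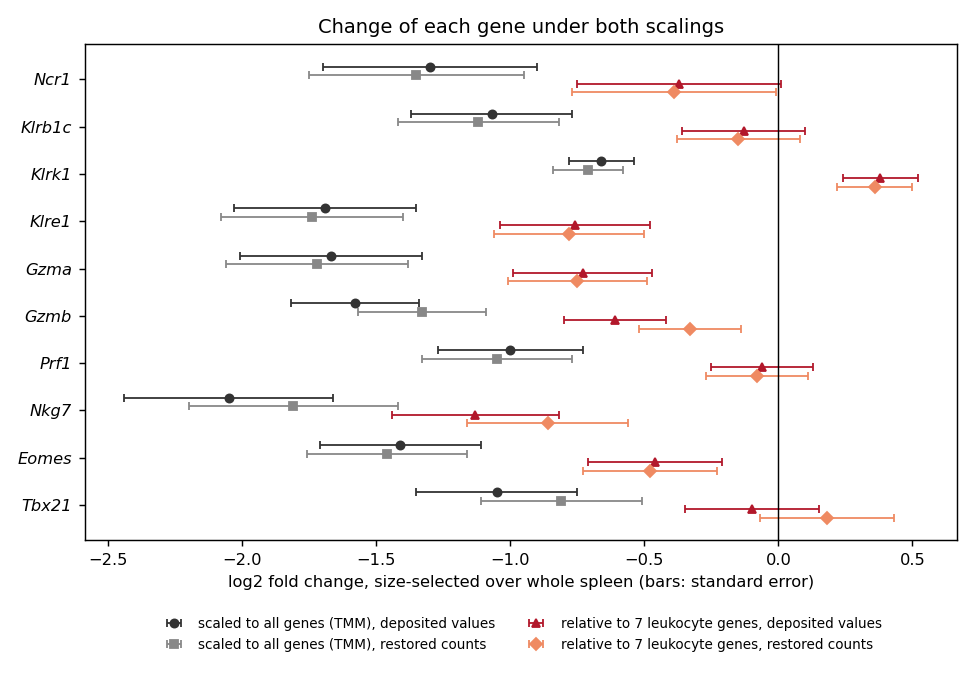
log2 fold change (size-selected over whole spleen, with standard errors) of each gene scaled to all genes and relative to the 7 leukocyte genes, from deposited values and from restored counts. All 10 lie below 0 on the first scale, from -2.05 to -0.66, and Klrk1 (0.38 deposited, 0.36 restored) and, with restored counts, Tbx21 (0.18, SE 0.25, not called) lie above 0 on the second.

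The other genes of natural killer biology were taken from lists by function, and the counts of each list are to be read against the 30.4% lower and 37.5% higher among all genes tested. Of the genes named from them, some carry the constants of the size-selected columns, and values given as restored have these removed. Of 31 other receptors and adaptors tested, 20 were called lower, 4 higher and 7 neither. Klrd1 (CD94), the partner of the inhibitory receptor NKG2A, fell by 1.74 (SE 0.26), and Klrc1, which encodes NKG2A, fell by 1.14 (SE 0.21). Hcst, the adaptor DAP10 through which NKG2D signals, fell by 1.60 (SE 0.23), while Tyrobp, the adaptor DAP12 that myeloid cells also use, stood at -0.23 (SE 0.16, edgeR adjusted p = 0.205). The 6 Klra (Ly49) genes, all called lower, are similar neighbours whose reads the counting may have divided among them. The 4 that rose were Itga2 (2.44, SE 0.25, restored 2.68), Cd226 (1.63, SE 0.36), Itgam (1.28, SE 0.15) and Fcgr3 (1.03, SE 0.19), which encode 2 integrin chains, an adhesion receptor also found on platelets and an Fc receptor shared with macrophages.

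Of 18 other granule and secretion genes tested, 6 were called higher, 6 lower and 6 neither, shares near those over all genes. With the number as a block, and with DESeq2, 8 were lower and 6 higher. Ctsw, a protease of cytotoxic lymphocytes, fell by 2.03 (SE 0.29, restored -1.64), and Srgn, the proteoglycan that packs granzymes, fell by 1.15 (SE 0.14). Ctsc, which activates granzymes and serves many lysosomes, rose by 0.97 (SE 0.12), Lamp1, a general lysosomal protein, rose by 0.95 (SE 0.11, restored 1.03), and Serpinb9, an inhibitor of granzyme B, rose by 1.18 (SE 0.11). Of the further granzymes, Gzmm was called lower (-1.19, edgeR adjusted p = 0.0281), Gzmk (-1.23, adjusted p = 0.0596) and Gzmc (-1.35, adjusted p = 0.0534) were not called, and Gzmd, Gzme, Gzmf, Gzmg and Gzmn did not pass the filter. The call of Gzmm ended without number 408 (adjusted p = 0.0675) or 427 (0.0645) and with library totals (0.0512).

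Among 9 death ligands and secreted effectors, 7 were lower and 2 higher. Ccl5, a chemokine stored by cytotoxic lymphocytes, fell by 1.97 (SE 0.25), Xcl1, which draws dendritic cells, fell by 1.86 (SE 0.26), Ifng fell by 1.72 (SE 0.44) and Fasl fell by 1.55 (SE 0.28, restored -1.30). Tnfsf10, the death ligand TRAIL, rose by 1.65 (SE 0.28), and Csf2 rose by 1.53 (SE 0.46).

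Of 11 transcription factors of natural killer development tested, 5 were lower, 4 higher and 2 not called. The same list held Kit, a receptor tyrosine kinase of progenitors, which was called higher (0.51, SE 0.18, edgeR adjusted p = 0.0167, restored 0.76) but not without number 447 (0.0632) or 460 (0.0681). Runx3 fell by 1.16 (SE 0.17), and Ikzf2 fell by 1.51 (SE 0.25). Tox2 (3.17, SE 0.27), Zeb2 (2.07, SE 0.16) and Nfil3 (0.90, SE 0.13) rose, and Id2 (-0.23, restored -0.16) and Ets1 (-0.19) were not called.

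Of 13 cytokines that act on natural killer cells and receptors for them, 3 were called higher, 9 lower and 1 neither. Il15 rose by 1.06 (SE 0.18), its presenting chain Il15ra rose by 2.15 (SE 0.23) and Il18 rose by 1.19 (SE 0.18). Of the chains of IL-12, Il12a was called lower (-0.57, edgeR adjusted p = 0.0393, lower in 6 of 8 numbers) and Il12b was not called (0.71, adjusted p = 0.0588), though with restored counts it was higher (0.97, adjusted p = 0.0146). Il12rb2, a chain of the IL-12 receptor and counted among the lower genes (-0.83), was not called with restored counts (-0.58, adjusted p = 0.0768). The call of Il12a ended with library totals (adjusted p = 0.12) and without any one of 407, 427, 435, 445, 447 or 460 (adjusted p up to 0.129, without 460). The 9 that were lower also included Il2rb, the signalling chain for IL-15, which fell by 1.11 (SE 0.27), and Il18r1, which fell by 1.12 (SE 0.29). Of 6 trafficking receptors, 5 were lower. Among them was S1pr5 (-1.30, SE 0.42, lower in 6 of 8 numbers), which lets natural killer cells leave tissue. Cx3cr1, also a receptor of macrophages, rose by 2.45 (SE 0.22). Of 5 NKG2D ligands in the table, 3 were tested: Ulbp1 rose by 1.18 (SE 0.28), H60b was called lower (-0.86, edgeR adjusted p = 0.0263, and 0.0885 with the number as a block) and Raet1d stood at 0.18 (SE 0.42).

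**Figure D4:**
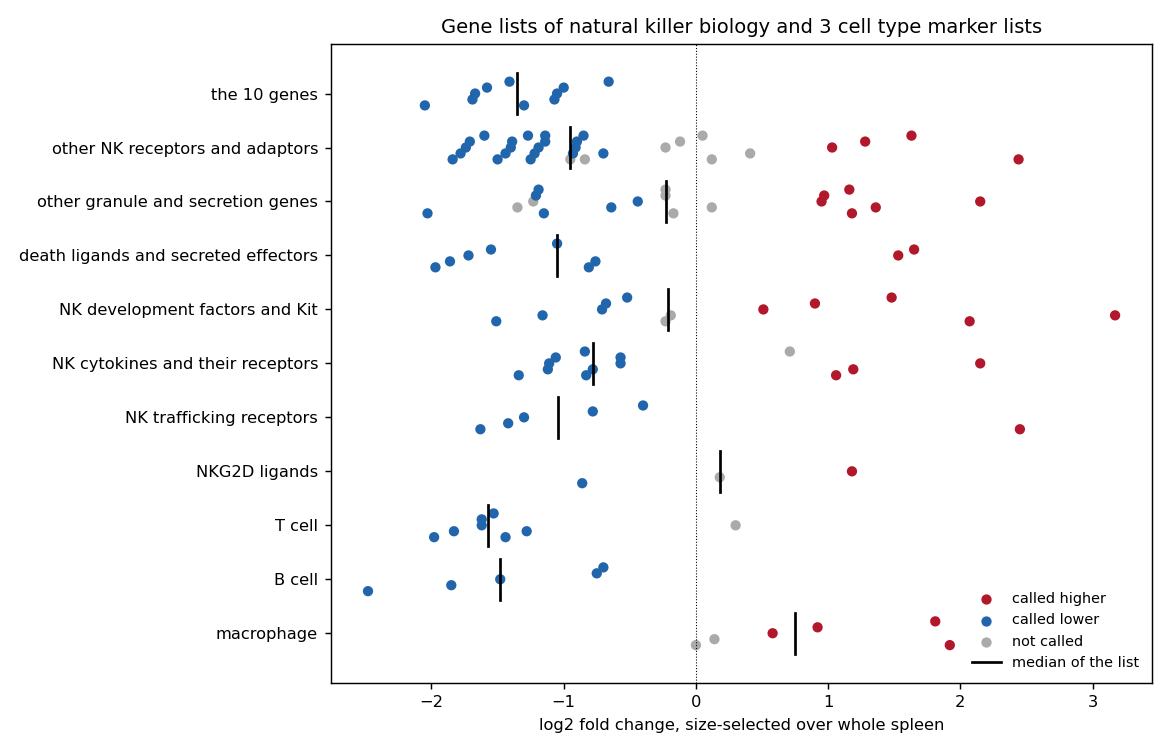
log2 fold change (size-selected over whole spleen) of each tested gene, by list and coloured by call, with the median of each list as a black line. The 10 genes lie between -2.05 and -0.66, while the list of development factors and Kit runs from -1.51 (Ikzf2) to 3.17 (Tox2).

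Sex was the other label of the samples. In whole spleen, edgeR called 0 of 10 genes between 4 female and 4 male samples, where 0.194% of all genes were called, and 2 of 10 had an unadjusted p under 0.05, as did 16.1% of all genes. These were Klrb1c, with 13 ± 0.99 CPM in females and 17.7 ± 4.15 in males (SD, n = 4 each), and Nkg7, with 83.5 ± 22.9 and 151 ± 46.7 CPM. The female to male log2 difference of Nkg7 was -0.86 (SE 0.22, edgeR adjusted p = 0.103), and the groups overlapped only in female 436, at 114 CPM, and male 427, at 113. DESeq2 called Nkg7 alone of the 10 (adjusted p = 0.00617), where it called 3.89% of all genes.

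In the size-selected samples, edgeR and DESeq2 each called 0 of 10 genes by sex, where they called 0.0397% and 0.145% of all genes, and 0 had an unadjusted p under 0.05 in edgeR. All 10 female to male log2 differences were below 0, from -1.06 (Nkg7, SE 0.60) to -0.17 (Ncr1, SE 0.72). The males include both extreme samples, 427 and 435, so that the range of Gzma was 6.37 to 87 CPM in males and 22.9 to 42 CPM in females. The interaction of sex and fraction was called for 0 of 10 genes by edgeR (0% of all genes) and by DESeq2 (0.019%), with 0 at an unadjusted p under 0.05 in edgeR. Its standard errors in the unblocked fit, 0.24 (Klrk1) to 0.83 (Ncr1), set the size of difference that this fit could have seen.

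Levels can be compared between genes only per transcript length. In whole spleen, CPM per kilobase of the principal transcript was highest for Gzma (150 ± 48.2, SD, n = 8) and Nkg7 (133 ± 56.4), whose ranges overlapped. Gzmb (36.2 ± 7.72) and Prf1 (24.6 ± 5.08) followed, also overlapping, and then Klrk1 (17.4 ± 1.96). Tbx21 (8.15 ± 2.33), Klre1 (7.52 ± 1.8) and Klrb1c (5.86 ± 1.43) overlapped one with the next, as did Eomes (3.72 ± 0.41) and Ncr1 (2.72 ± 0.957) at the low end. With the longest transcript as the length, Nkg7 came before Gzma and Klrk1 moved to the seventh place.

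The genes most like each member over the 16 samples were found by the root mean square difference of log2 CPM profiles, each centred on its own mean. The profile of Klrb1c was nearest to that of Prf1 (0.22), and that of Klre1 to that of Gzma (0.23). The 3 nearest included T cell receptor genes for 3 members: Trac for Eomes (0.25), Cd3g for Nkg7 (0.31) and Cd3d for Gzma (0.31). They also included genes of B cells and antigen presentation: the immunoglobulin genes Igkv8-21 (0.28) and Igkv17-121 (0.29) for Gzmb, and H2-DMb2 for Prf1 (0.22) and Klrb1c (0.27). Il18rap, a chain of the IL-18 receptor, was nearest to Ncr1 (0.44), Cxcr4 to Gzmb (0.26) and Txk, a kinase of T and natural killer cells, to Tbx21 (0.28). Klrk1 was nearest to Raver1 (0.15), which encodes an RNA-binding protein, and farthest among the members from Nkg7 (1.10). All profiles include the difference between the fractions, and some, those of Gzmb, Nkg7, Tbx21, Cd3g and Cxcr4 among them, also include the constants, so the distances are a description. With restored counts, Cxcr4 was still nearest to Gzmb (0.28) and Cd3g to Nkg7 (0.31), while Cd6 came first for Tbx21 (0.27), Lck for Prf1 (0.21) and Nsmce4a for Klrk1 (0.16), and neither immunoglobulin gene nor H2-DMb2 nor Cd3d was among the 3 nearest.

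The authors' deposited table of 2201 genes higher in the size-selected group, whose smallest log2 fold change was 3.50, held 0 of the 10 genes.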

How the data were processed

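Total RNA was sequenced from 16 spleen samples. The submitters' processing notes name Trim Galore, STAR, RSEM and DESeq and the build mm10, without versions. Deposited values are estimated counts for each gene and sample, with totals of 13119992 to 19944440 in the size-selected and 12153770 to 16282454 in the whole spleen samples. At these depths the precision of a gene such as Ncr1, with 1 to 84 counts, is limited by counting as well as by spread. Per the file headers, the authors' second table gives a mean signal, log2 fold changes, test scores, p-values, and TPM and FPKM means per group. It was used only for membership and its smallest fold change.

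Estimated counts were rounded for edgeR 4.0.16 in R 4.3.3. Low genes were removed by filterByExpr (minimum count 10), libraries were scaled by TMM, and the test was edgeR's quasi-likelihood F with Benjamini-Hochberg adjustment over all genes tested (calls at an adjusted p under 0.05). Standard errors are the log2 change divided by the root of F. The leukocyte scale replaces the library totals by the summed counts of 7 genes. CPM uses TMM-scaled totals and log2 CPM a prior count of 2. Per the values alone, 3898 genes in the size-selected columns carry 1 or more of 3 constants, and dividing by them gave restored counts. The fits and the search for constants were tested on simulated data.

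Same-numbered samples deviated together from their group means (mean correlation 0.21 over 14510 genes, 0.12 to 0.38 over the 8 numbers, against -0.03 for different numbers). A fit with the number as a replicate block was therefore run beside the unblocked one. Log2 changes from a fit, standard errors and adjusted p are from the unblocked fit, which ignores the pairing, unless the block is named. The other alternatives were DESeq2 1.42.0, RLE size factors, unscaled totals, a looser and a stricter filter, sex as a covariate, restored counts, other reference genes and leaving out each number.

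The 10 genes and all lists were chosen with earlier results of these data known. All 10 are described, other genes are named from the lists, and up to 3 nearest genes by profile, where mean log2 CPM reaches 3, may be named. Coordinates of genes are 1-based, from GENCODE M21 on GRCm38, and promoters are from RefSeq on GRCm38.p6.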

Additional observations from a re-analysis of the deposited data

Results flagged for a closer look

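Among 50 groups of 8 samples screened for a sample far from the others (the 10 genes and the summed marker lists, in each fraction, as log2 CPM), 7 had one. Chance gives about 1 in 20. Ncr1 in size-selected sample 427 was at -2.29, with the other 7 at 0.21 to 1.63, and rests on 1 read. Tbx21 in the same sample was at 0.98, with the others at 2.63 to 4.07. In whole spleen, Tbx21 in number 436 was at 5.08 (others 4.01 to 4.39) and Prf1 in number 435 was at 6.48 (others 5.67 to 6.01).

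Of the marker sums, that of mast cell and basophil genes in size-selected sample 436 was at -2.14, with the others at 1.02 to 2.14. In whole spleen sample 427, the macrophage sum was at 11.18 (others 10.20 to 10.62) and the endothelial sum at 7.36 (others 6.17 to 6.67).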

How the results depend on the processing

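All 10 genes were called lower under every alternative of the fraction comparison. With the replicate block their log2 changes ran from -2.25 (Nkg7) to -0.67 (Klrk1), all 10 were called lower, and the calls of the 10 on the leukocyte scale did not change. The block ended the call of H60b (edgeR adjusted p = 0.0885), gave 21 lower receptors in place of 20 and 8 lower granule genes in place of 6, and Cd4 was then called higher. Of the other natural killer list genes, 11 lost their call under at least 1 alternative. Library totals moved the median of all genes from 0.05 to 0.18. Genes called in the fraction comparison numbered 9855, and 9249 to 9823 with 1 number left out. On the leukocyte scale they numbered 11984, and 11516 to 12108.

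The members called lower on the leukocyte scale were 7 with Ptprc alone, 1 with T cell genes, 0 with T cell genes other than Cd4, and 3 to 5 with 1 number left out. Signs changed there for Klrk1 with Ptprc (-0.13), for Klrb1c (0.19), Prf1 (0.27) and Tbx21 (0.26) with T cell genes, for Ncr1 (0.24), Klrb1c (0.54), Gzmb (0.15), Prf1 (0.61), Eomes (0.16) and Tbx21 (0.55) with those other than Cd4, and for Tbx21 with restored counts (0.18). Leaving out a number gave Prf1 -0.14 to 0.02 and Tbx21 -0.17 to 0.03. The Ptprc and T cell references were fitted on deposited values only. The cause of the changed signs was not tested.

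Genes called by sex in whole spleen numbered 26, 521 with DESeq2, 273 with no count filter, and 7 (without 460) to 261 (without 427) with 1 number left out. Nkg7 was called by sex there with no filter (adjusted p = 0.008) and without 427 (0.0414). In the size-selected samples 6 genes were called, 22 with DESeq2, and 5 to 6 with 1 number left out. For the interaction the count was 0, 3 with DESeq2, 3 with the replicate block, and 0 to 1 with 1 number left out. With the block its sign turned for Klrb1c (0.02), Gzma (0.12), Nkg7 (0.19) and Eomes (0.10). With 1 number left out, it ran from -0.51 to 0.24 for Klrb1c, -0.75 to 0.03 for Klre1, -0.42 to 0.02 for Gzma, -0.41 to 0.18 for Nkg7 and -0.57 to 0.33 for Eomes. The sex difference then ran from -0.20 to 0.16 for Gzmb and -0.29 to 0.15 for Tbx21 in whole spleen, and from -0.56 to 0.29 for Ncr1 and -0.53 to 0.33 for Eomes in the size-selected samples. None of these was called.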
